A study of Mus musculus with 2 samples.

Results

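The regions described here are open chromatin peaks of LβT2 cells that lie between genes, at a middle distance from the start of a protein-coding gene. LβT2 cells are an immortalized mouse cell line derived from pituitary gonadotropes, the cells that make luteinizing hormone and follicle-stimulating hormone. ATAC-seq, which marks open chromatin by the insertion of adapters by the Tn5 transposase, was done on 2 replicate samples of 4500 cells at passage 21. GnRH was given to both at 2 nM as 4 pulses, spaced by 2 h, and the cells were harvested after 6 h and 45 min, which was 45 min after the last pulse. All values describe this 1 condition of 1 cell line, and untreated cells were not analysed here. Nothing in the labels says that the replicates came from separate cultures.

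The members were selected on the measured summit positions of the peak calls: a replicate 1 summit on chromosomes 1 to 19, within 200 bp of a replicate 2 summit, outside every GENCODE vM21 gene body and 5 to 50 kb from the nearest protein-coding transcription start site (TSS). This gave 3724 regions, of 58519 peaks of replicate 1 in all, 52934 on these chromosomes and 22917 with a matching summit. With positions taken from replicate 2 there were 3720. Of the peaks found in both replicates, 5230 lay within 1 kb of a coding TSS (promoter), 5611 in introns at least 5 kb from one, and 6521 between genes over 50 kb away. The members nearest to the 5 kb bound lay 5006 bp (Gm47189), 5008 bp (Bmpr1a) and 5014 bp (Zfp534) from a TSS. Just outside it, matched peaks lay at 4995, 4992 and 4990 bp. At the far bound, members lay at 49990, 49976 and 49969 bp, and peaks left out at 50011, 50028 and 50045 bp. Members near Lrmda, Gm3486 and Gm8082 had summits 200 bp apart in the replicates, and peaks near Gm8374, H2-M11 and Cobll1 missed the rule by 1 bp.

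Open chromatin between genes often marks distal regulatory elements such as enhancers, which bind transcription factors and act on promoters over a distance, or insulators, which bind CTCF. In gonadotropes, the orphan receptor NR5A1 (SF1) and homeodomain factors of the PITX and LHX families act on gonadotrope genes. GnRH signals through kinase cascades to immediate early genes such as Fos and Egr1. A peak between genes can also arise where reads from repeated sequence were placed, so the copy number of each summit was counted. The 50 bp around each summit were looked up in the whole genome, on both strands. Summits whose 50 bp had no second exact match are termed single-copy here, all others multi-copy.

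By this count, 836 members (22.4%) were single-copy at the summits of both replicates, 2533 (68.0%) were multi-copy in both and 355 (9.53%) were single-copy in one replicate alone. This split rests on the length compared: with 200 bp in place of 50, 62.9% of the members were single-copy at the replicate 1 summit, among them 46.3% of those that are multi-copy here. The multi-copy summits had a median of 23 copies and at most 19234. At the summit itself, 81.7% of the single-copy members (95% interval 78.9 to 84.2%) lay in sequence that the reference does not mark as repeated, but only 22.3% (20.7 to 23.9%) of the multi-copy members did. The first set of sequences below shows 3 of the strongest single-copy members, which have near copies elsewhere although their summits do not. The second shows the 5 highest single-copy members next to gonadotrope, pituitary or immediate early genes, and the third the 3 highest with an NR5A motif, by mean rank of −log10 q over both replicates, a set chosen after its values were seen. Each is the 161 bp of GRCm38 centred on the replicate 1 summit, on the + strand and 5′ to 3′. Capitals mark matches to an AP1, CRE, EGR, GC box, CTCF, NFI, NR5A, sine oculis (TCAGGTTTC), GATA, FOX, OCT, SMAD or steroid receptor motif, or to the CENP-B box.
Ly6c2 (chr15:75086697-75086857): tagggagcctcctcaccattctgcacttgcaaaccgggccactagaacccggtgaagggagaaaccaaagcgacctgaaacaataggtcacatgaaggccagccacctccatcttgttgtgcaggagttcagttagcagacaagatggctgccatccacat
Dpy19l1 (chr9:24542027-24542187): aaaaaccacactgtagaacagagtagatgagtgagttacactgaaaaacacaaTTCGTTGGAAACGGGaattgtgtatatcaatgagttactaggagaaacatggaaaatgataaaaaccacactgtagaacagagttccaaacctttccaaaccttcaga
P4ha2 (chr11:54140147-54140307): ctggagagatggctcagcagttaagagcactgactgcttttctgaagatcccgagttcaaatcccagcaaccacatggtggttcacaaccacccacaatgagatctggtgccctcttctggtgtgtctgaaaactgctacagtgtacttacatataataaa
Ghrhr (chr6:55396717-55396877): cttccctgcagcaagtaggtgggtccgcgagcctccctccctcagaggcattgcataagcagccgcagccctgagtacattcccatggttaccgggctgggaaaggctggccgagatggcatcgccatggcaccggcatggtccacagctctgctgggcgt
Nr4a1 (chr15:101246338-101246498): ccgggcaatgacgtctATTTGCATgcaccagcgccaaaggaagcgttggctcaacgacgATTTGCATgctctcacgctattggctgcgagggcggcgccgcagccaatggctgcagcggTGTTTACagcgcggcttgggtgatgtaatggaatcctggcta
Btg2 (chr1:134092945-134093105): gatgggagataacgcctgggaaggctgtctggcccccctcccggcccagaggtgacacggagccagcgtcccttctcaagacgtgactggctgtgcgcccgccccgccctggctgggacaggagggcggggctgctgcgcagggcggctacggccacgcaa
Msx1 (chr5:37835968-37836128): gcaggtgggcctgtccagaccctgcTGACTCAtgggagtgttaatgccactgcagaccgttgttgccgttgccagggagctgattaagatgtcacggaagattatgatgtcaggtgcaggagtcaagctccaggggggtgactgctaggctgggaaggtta
Fos (chr12:85485898-85486058): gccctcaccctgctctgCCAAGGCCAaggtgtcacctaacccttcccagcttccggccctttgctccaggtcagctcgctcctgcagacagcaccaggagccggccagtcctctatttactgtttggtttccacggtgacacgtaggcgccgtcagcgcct
A730009L09Rik (chr16:84475637-84475797): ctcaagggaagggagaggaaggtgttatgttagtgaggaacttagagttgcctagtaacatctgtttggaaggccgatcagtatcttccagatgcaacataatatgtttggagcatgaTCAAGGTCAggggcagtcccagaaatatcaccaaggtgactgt
Dcbld2 (chr16:58393067-58393227): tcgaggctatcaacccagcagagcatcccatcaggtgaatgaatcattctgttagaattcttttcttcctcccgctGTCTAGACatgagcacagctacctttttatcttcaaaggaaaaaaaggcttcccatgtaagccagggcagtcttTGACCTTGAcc
Smim20 (chr5:53297344-53297504): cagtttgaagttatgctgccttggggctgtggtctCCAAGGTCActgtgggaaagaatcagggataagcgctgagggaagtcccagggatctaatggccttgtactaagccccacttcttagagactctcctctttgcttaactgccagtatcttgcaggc

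The strength of a peak is given as its summit tags, the number of extended reads over the summit. The lists give no read totals, so tags were solved from the deposited fold enrichment, which is the tags against a library background of 3.05 tags in replicate 1 and 3.54 in replicate 2. The paper gives the genome size option of the peak calling as dm, the fruit fly setting. Its effect on this background, the fold and q was not tested. The median member had 16 tags in replicate 1 and 19 in replicate 2 (17.5 ± 2.12, mean ± SD, n = 2). The lowest had 10 and 11 tags and the highest 2046 and 2246. Single-copy members had medians of 17 and 25 tags and multi-copy members 16 and 18. Most members therefore rested on few tags, and 450 (12.1%) had a −log10 q of at least 10 in both replicates. Of the 836 single-copy members 167 did so, and of the 2533 multi-copy members 247 (9.75%).

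**Figure D1:**
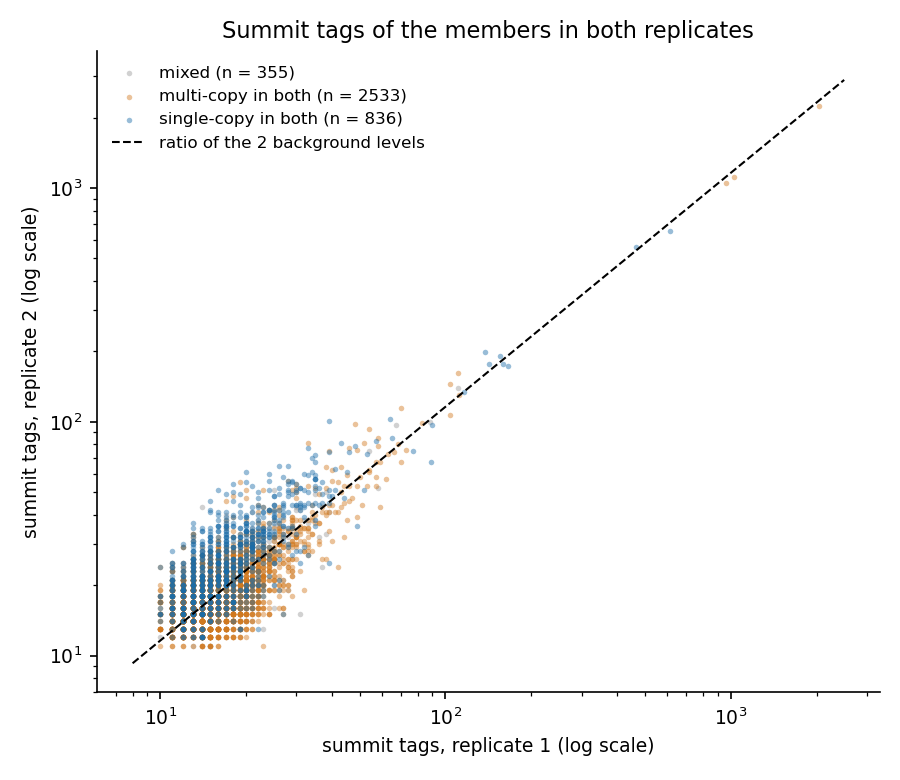
Summit tags of each member in replicate 1 (x axis) and replicate 2 (y axis), both on log scales, with single-copy members in blue, multi-copy members in orange and members that differ between replicates in grey. The dashed line is the ratio of both backgrounds; most members lie below 50 tags, and a small group above 100 tags lies near the line.

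Only 16 members had over 100 tags in both replicates, of which 8 were single-copy and 7 multi-copy in both. The strongest multi-copy member lay 36.1 kb upstream of Zfp825, a zinc finger gene, with 2046 and 2246 tags at chr13:74528431-74531050 and 9 copies of its summit sequence. The members near Tcp10c, with 1030 and 1118 tags, and near Aadac, with 964 and 1053 tags, followed it. These 3 stood above every other member in both replicates. The next multi-copy members by mean rank, near Igf2bp3 with 111 and 162 tags and near Chrm3 with 104 and 145 tags, were much lower.

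Among single-copy members, the region 24.9 kb downstream of the TSS of Ly6c2, a surface antigen gene, was highest with 613 and 657 tags at chr15:75085499-75087048. A region 39.0 kb upstream of Dpy19l1 had 467 and 557 tags at chr9:24542004-24542167. Both were far above the region near P4ha2, a collagen prolyl hydroxylase gene, with 155 and 192 tags. The 10 highest by mean rank of −log10 q also held regions near Gm3460 (159 and 176 tags), Eci2 (142 and 177), Hic2 (138 and 199), Pde6h (116 and 134), Apbb1ip (90 and 97) and Zfp119b (64 and 103).

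A single exact copy of the summit did not make these sequences unique. A BLAST search with the sequence within 100 bp of each summit counted other places with at least 80% identity over at least 100 bp. The P4ha2 region had 79841 of them, the Eci2 region 1879, the Gm3460 region 225 and the Pde6h region 197. The Dpy19l1 region had 12, the Ly6c2 region 10 with up to 97.02% identity, the Apbb1ip region 6 and the Hic2 region 5 with up to 97.5% identity. Of the regions named here, the Zfp119b region had 0. The Dpy19l1 sequence held a CENP-B box, searched on both strands, the motif that centromere protein B binds in satellite repeats, which 0.00431% of all windows of that length on chromosomes 1 to 19 held. It and 1 region near Smok2a were the only members with this box.

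Single-copy members had medians of 17 and 25 tags and upper quartiles of 21 and 33. All 14 single-copy members near gonadotrope, other pituitary or immediate early genes had between 13 and 39 tags in replicate 1 and between 20 and 101 in replicate 2. Of these 14, the stronger members near Ghrhr, Nr4a1 and Btg2 lay above both upper quartiles, and the others did not. No near copy was found for 13 of the 14, a share that was not measured over all 836. The exception was the region 23.9 kb downstream of the TSS of Cga, which encodes the alpha subunit shared by the pituitary glycoprotein hormones. It had 16 and 22 tags and 74 near copies with up to 94.8% identity.

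The members fell in both copy classes in other proportions than the other peaks found in both replicates. At each replicate's own summit, 27.3% ± 0.211 of the members were single-copy (SD, n = 2), compared with 22.4% ± 0.431 of intergenic peaks over 50 kb from a TSS, 35.7% ± 0.141 of intronic peaks and 94.1% ± 0.0565 of promoter peaks. Unmasked sequence held 35.5% ± 0.239 of the members' summits, compared with 15.6% ± 0.00169, 39.5% ± 0.315 and 96.0% ± 0.137 (SD, n = 2). Promoters thus stood apart from all 3 distal classes by far more than the spread between replicates. These SDs rest on the same matched peaks read at both sets of positions and are small for that reason.

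Multi-copy members were crowded on chromosome 14. Of the 3724 members, 985 (26.5%) lay there, 517 of them below 8 Mb and 320 between 40 and 45 Mb. These 2 stretches held 22.5% of all members, and 95.6% and 94.1% of their summits were multi-copy. The nearest gene had a Gm symbol, the name for predicted genes, for 97.9% and 90.9% of them, and medians of 17 and 19 tags in the first stretch and of 16 and 18 in the second were close to those of all members. The genes nearest to the most members were Gm21560 and Gm3526, with 20 each and no single-copy member among them.

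Single-copy members were spread unevenly too. Their number per Mb of sequenced chromosome ran from 0.651 on chromosome 14, 0.632 on chromosome 17 and 0.552 on chromosome 1 down to 0.0854 on chromosome 13, 0.0866 on chromosome 10 and 0.0876 on chromosome 8. Chromosomes 3 (0.128), 12 (0.163) and 9 (0.264) were also low. The chromosomes poor in single-copy members were poor in promoter peaks too: a single-copy promoter peak was found for 12.3% of the coding genes of chromosome 13, 12.7% of chromosome 10, 12.9% of chromosome 8, 12.8% of chromosome 3, 15.3% of chromosome 9 and 16.8% of chromosome 12, but for 31.5% of chromosome 1, 28.3% of chromosome 14 and 29.1% of chromosome 17. Over the 19 chromosomes, single-copy members per Mb had a Spearman rho of 0.853 with this share, 0.911 with single-copy intronic peaks per Mb, 0.830 with single-copy peaks over 50 kb away and 0.191 with multi-copy members. These are descriptions over chromosomes that share both libraries. Chromosome numbers in the cells were not measured.

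**Figure D2:**
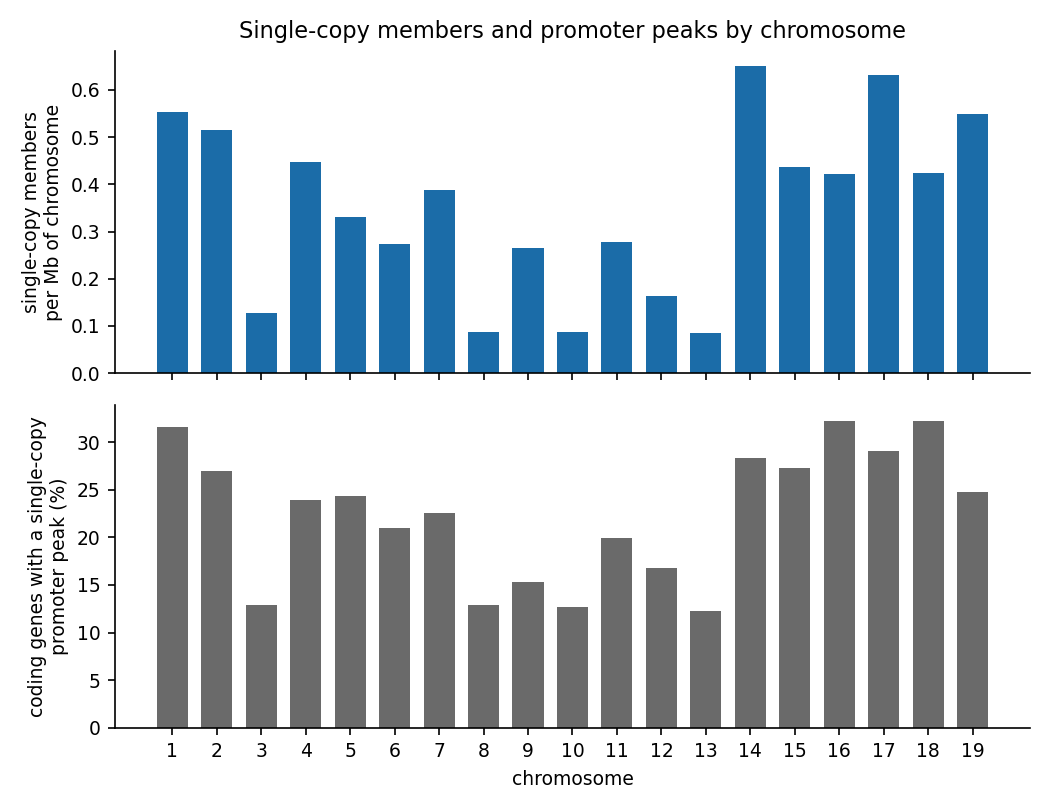
Upper panel, single-copy members per Mb of sequenced bases on each autosome (y axis); lower panel, the percentage of protein-coding genes with a single-copy promoter peak. Chromosomes 3, 8, 10, 12 and 13 are low in both panels, with 0.0854 to 0.163 members per Mb and 12.3 to 16.8% of genes.

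With distance from the TSS, the total density of single-copy members hardly changed within the range of the rule. Per Mb of intergenic sequence at that distance, it was 2.38 ± 0.0318 at 5 to 10 kb, 2.44 ± 0.0379 at 10 to 15 kb, 2.50 ± 0.0751 at 15 to 20 kb, 2.40 ± 0.0190 at 20 to 30 kb, 2.24 at 30 to 40 kb and 2.44 at 40 to 50 kb (SD, n = 2). Beyond the rule it was 2.10 ± 0.0178 from 50 to 100 kb and 1.16 ± 0.00108 farther out. Single-copy density at 5 to 10 kb was therefore 0.972 ± 0.0130 times that at 40 to 50 kb, on 157 and 116 members at replicate 1 positions. Under this total, CpG-rich single-copy members were at 0.420 per Mb at 5 to 10 kb and 0.147 at 40 to 50 kb, and the others at 1.93 and 2.30 (replicate 1 positions). Members of any copy class with an unmasked summit were at 6.98 and 4.93 per Mb of unmasked sequence, with the 2 stretches of chromosome 14 included. These stretches made up 0.951 Mb of the intergenic sequence at 5 to 10 kb and 0.200 Mb at 40 to 50 kb. The density of unmasked summits was not computed without them, so a general change with distance cannot be read from it. For all members the ratio was 1.203 ± 0.000720, and for multi-copy members 1.34 ± 0.00411. Without the 2 stretches of chromosome 14, and without their sequence, the ratio was 0.918 ± 0.00198 for all members and 0.921 ± 0.000913 for multi-copy members, a restriction chosen after seeing the data. Of these ratios, the ones above 1 for all and for multi-copy members were thus found with these stretches included and not without them.

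**Figure D3:**
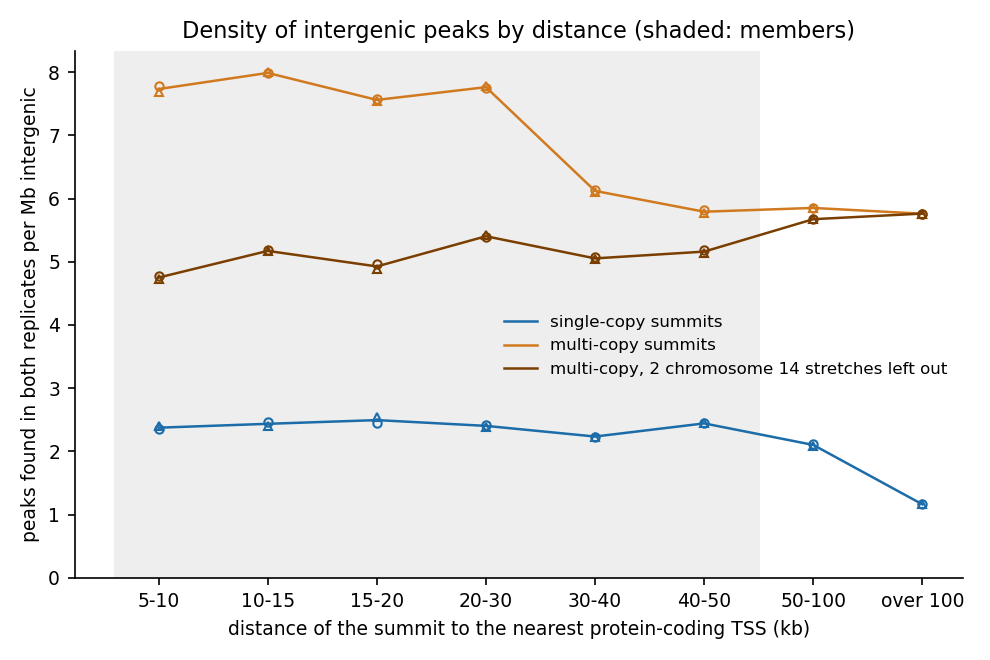
Peaks found in both replicates per Mb of intergenic sequence (y axis) by distance of the summit to the nearest protein-coding TSS (x axis), at positions of replicate 1 (circles) and replicate 2 (triangles), with lines through their mean. Single-copy density stays between 2.24 and 2.50 over the shaded range of the members and is 1.16 beyond 100 kb, and multi-copy density near genes is lower once 2 stretches of chromosome 14 are left out.

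Upstream of their nearest gene lay 544 of the 836 single-copy members, 65.1% (61.8 to 68.2%), and 63.1% of all members. Of the intergenic sequence 5 to 50 kb from a TSS, 67.9% lies upstream of the nearest gene. This share lay within the interval of the single-copy members and above that of all members (61.5 to 64.6%).

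Some members lay at starts that the rule did not use. Among single-copy members, 66 (7.89%) were within 1 kb of the start of any GENCODE transcript and 96 (11.5%, 9.50 to 13.8%) within 1 kb of a RefSeq start. A further check against RefSeq put 150 (17.9%) inside a gene body of that annotation. CpG-rich sequence, defined as a GC content over 55% and an observed to expected CpG ratio over 0.6 within 250 bp of the summit, held 85 single-copy members (10.2%, 8.30 to 12.4%), compared with 73.8% ± 1.06 of promoter peaks (SD, n = 2). Of these 85, 31.8% lay within 1 kb of a RefSeq start, but 9.19% of the 751 others did. CpG-rich members had medians of 19 and 31 tags and the others 17 and 24.

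RefSeq records of functional elements covered 11 members, 10 of them single-copy. One lay 7.90 kb upstream of Hbb-y, an embryonic beta-like globin gene, inside a recorded DNase I hypersensitive site of the beta-globin locus control region, with 35 and 36 tags at chr7:103860903-103861229. A recorded enhancer 13.9 kb upstream of Btg2 held 31 and 43 tags and one 10.0 kb upstream of Fosb held 13 and 20. The others were near Chd2 (29 and 55 tags), Csnk1a1 (18 and 29), Tuba1a (19 and 25 in one, whose replicate 1 summit had 2 copies, 15 and 18 in the other), Actg1 (14 and 26), Zdhhc13 (16 and 20), Kcne1 (18 and 16) and Myh7 (11 and 16). Except for the elements near Hbb-y, Btg2 and Chd2, a promoter element, all were VISTA enhancers, which are tested in mouse embryos.

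Genes were then counted as having a single-copy member when they were the nearest coding gene of at least 1. This held for 726 of 20807 protein-coding genes on chromosomes 1 to 19, a background of 3.49%. It held for 8 of 36 immediate early genes, the first genes that a stimulus switches on (22.2%, 11.7 to 38.1%): Atf3, Btg2, Egr1, Fos, Fosb, Ier5, Myc and Nr4a1. Of the 70 coding genes on these chromosomes among 108 that the study's RNA-seq table lists as induced by GnRH, 9 had one (12.9%, 6.91 to 22.7%), and 6 of these were also immediate early genes. The others were Ccnl1, Rgs2 and Spty2d1. Of 22 genes of the activin, inhibin and BMP pathways, 5 had one (22.7%, 10.1 to 43.4%): Bmp4, Bmpr1a, Inhbb, Smad7 and Tgfbr3. With replicate 2 positions these counts were 8, 9 and 4. The intervals are Wilson intervals and cover counting error only.

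These lists also had more intergenic sequence per gene, with a median of 27.3, 38.8 and 20.6 kb for immediate early, activin, inhibin and BMP, and GnRH-induced genes, compared with 8.49 kb for all coding genes. In single-copy members per Mb of intergenic sequence 5 to 50 kb from their TSS, immediate early genes had 9.27, activin, inhibin and BMP genes 10.3 and GnRH-induced genes 6.03, compared with 2.39 for all coding genes. Of the 8 members behind the activin, inhibin and BMP value, 4 lie near Inhbb, and without this gene, left out after seeing the data, the value was 5.55 per Mb. Gonadotrope genes had 2.30 per Mb, close to all coding genes, and 2 of 21 genes with a member (Cga and Msx1). Other pituitary lineage genes had 1 of 13 (Ghrhr) and 4.65 per Mb, and steroid and thyroid hormone receptor genes 1 of 14 (Rarb) and 5.42 per Mb, each from 2 regions of a single gene. Both Rarb regions lie inside the Rarb gene body of RefSeq, and the one 33.7 kb upstream had 37 near copies. Olfactory receptor genes had 15 of 1128 (1.33%, 0.808 to 2.18%), vomeronasal receptor genes 16 of 327 (4.89%, 3.03 to 7.80%) and ribosomal protein genes 0 of 79, with an upper bound of 4.64%. When multi-copy members were counted too, 10.6% of all coding genes had a member, compared with 32.7% of vomeronasal receptor genes, 30.6% of immediate early genes and 27.3% of activin, inhibin and BMP genes. Vomeronasal receptor genes had a median of 24.1 kb of such sequence and 18.1 members per Mb, compared with 10.6 per Mb for all coding genes.

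Among immediate early genes, Nr4a1, an orphan nuclear receptor gene, had the strongest member, 7.85 kb upstream at chr15:101246329-101246729 with 35 and 57 tags. Its sequence above holds an octamer motif at 2 places and a forkhead motif. A weaker one lay 13.4 kb upstream with 13 and 29 tags. Btg2, an antiproliferative gene, had the region 13.9 kb upstream already named, at chr1:134092635-134093217, and another 11.8 kb downstream of the TSS with 13 and 25 tags.

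Fos, which encodes a subunit of AP1, had a CpG-rich member 12.1 kb downstream of its TSS at chr12:85485881-85486125 with 20 and 31 tags and an NR5A match. Fosb, its relative, had the enhancer region 10.0 kb upstream. Egr1, a zinc finger factor gene that mediates GnRH effects on the Lhb promoter, had one 26.3 kb downstream with 18 and 32 tags. Atf3 had one 6.37 kb upstream with 15 and 31 tags, 0.047 kb from the start of the long non-coding RNA gene D730003I15Rik. Ier5 had one 16.1 kb downstream with 20 and 30 tags, 0.25 kb from the start of the non-coding gene Gm9530. Myc had one 45.8 kb upstream with 13 and 24 tags. The members of Fos, Fosb, Egr1, Atf3 and Ier5, and the stronger ones of Nr4a1 and Btg2, were CpG-rich, 7 of the 10 single-copy members of immediate early genes. Those of Egr1 and Ier5 held an EGR motif and a GC box, defined below with the other motifs.

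Rgs2, a regulator of G protein signalling, had members 13.5 kb downstream with 31 and 44 tags and 14.9 kb upstream with 11 and 16. Ccnl1, a cyclin gene, had one with 14 and 21 tags and Spty2d1 one with 11 and 25.

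Inhbb, which encodes the beta B subunit of activin and inhibin, had 4 single-copy members, and only 1 coding gene had more. They lay 28.9 to 35.6 kb downstream of its TSS within 7219 bp at chr1:119386436-119393654, with 23 and 28, 19 and 29, 20 and 34, and 12 and 15 tags. One held an NR5A match, another an AP1 match. The region 5.01 kb upstream of Bmpr1a, a BMP receptor gene, had 22 and 35 tags and was 1682 bp wide in replicate 1. Smad7, an inhibitory SMAD gene, had 17 and 21 tags, Bmp4 16 and 16, and Tgfbr3, the betaglycan gene, 11 and 19. The Tgfbr3 region had 43 near copies with up to 86.0% identity.

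Of the gonadotrope genes, Msx1, a homeobox gene, had a member 11.5 kb upstream at chr5:37835822-37836105 with 24 and 27 tags and an AP1 match. The strongest member beside any listed gene lay near Ghrhr, the receptor gene for growth hormone-releasing hormone, which belongs to somatotropes. It was 20.4 kb downstream of the TSS at chr6:55396288-55397430 with 39 and 101 tags, but only 0.090 kb from the start of the long non-coding RNA gene 6430584L05Rik. A weaker one lay 12.6 kb downstream with 13 and 26 tags. At the promoters of marker genes, 3 of 8 gonadotrope genes had a peak in both replicates and 6 in replicate 2, and 0 of 6 genes of other pituitary lineages had one.

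**Figure D4:**
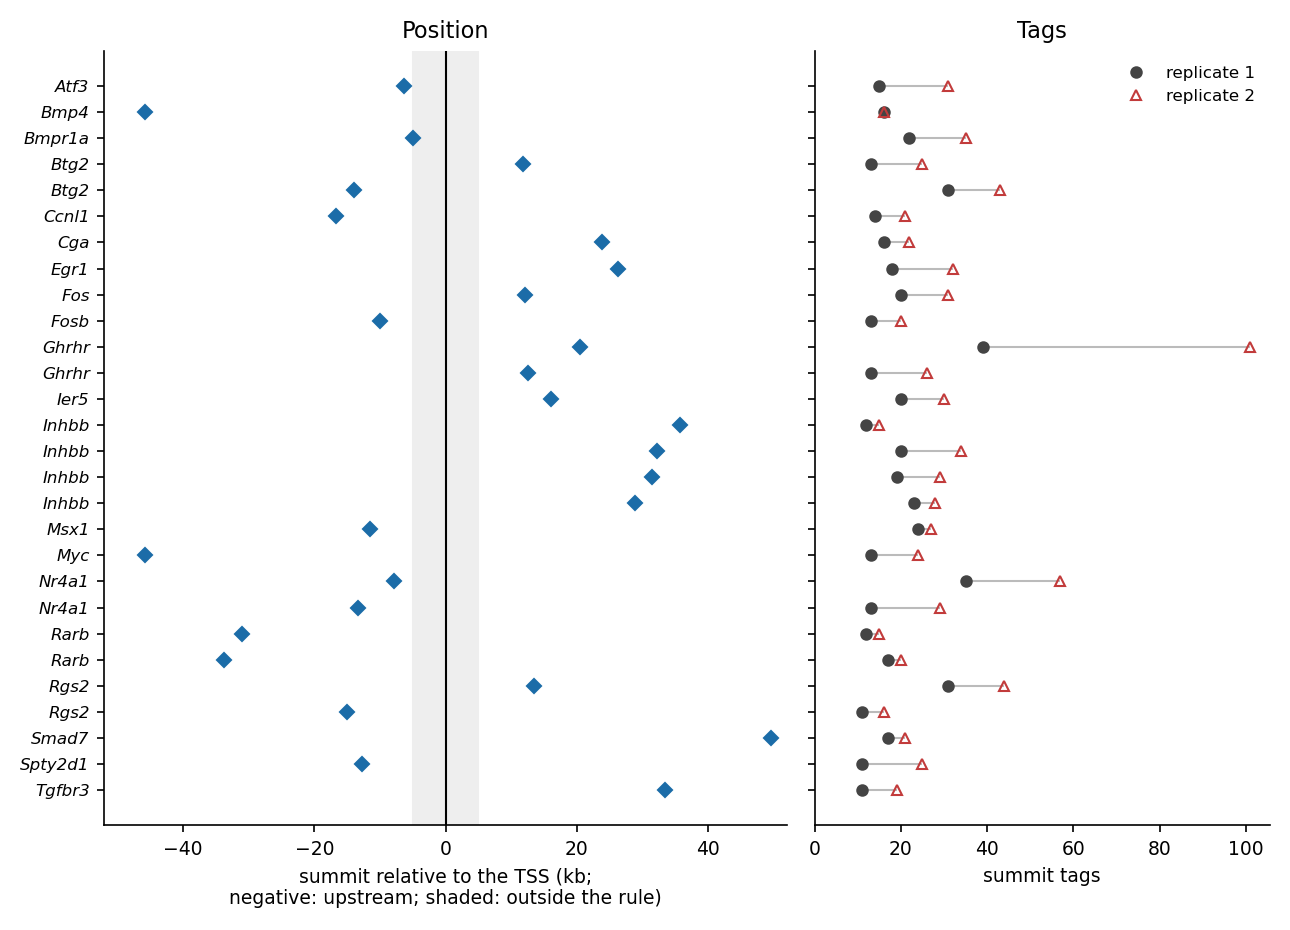
Left, position of each single-copy member relative to the TSS of its nearest gene (x axis, kb, negative upstream) for genes of the lists; right, its summit tags in replicate 1 (circles) and replicate 2 (triangles). The region near Ghrhr has 39 and 101 tags, and 4 regions near Inhbb lie together between 28.9 and 35.6 kb.

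Over all coding genes, 638 had 1 single-copy member, 70 had 2, 15 had 3, 2 had 4 and 1 had 5. Smok2a, a sperm motility kinase gene, had 5, with 13 to 20 tags in replicate 1 and 16 to 30 in replicate 2. Each of these 5 had at least 1 near copy, with a best identity between 92.1 and 99.2%. Olfr1423, an olfactory receptor gene, had 4 within 6838 bp with 11 to 15 and 18 to 32 tags and no near copy. Genes with 3 included Opn4 (melanopsin), Hk2 (hexokinase), Nnat (neuronatin), Tpt1, Dcbld2, Dact2 and Chmp4b. When single-copy members with summits at most 12.5 kb apart were joined, 150 of them (17.9%) lay in 67 stretches of 2 or more, 14 of which held 3 or more.

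Sequence motifs were searched within 100 bp of each summit, as exact letters on both strands. The share of members with a match is given beside that of all windows of the same length on chromosomes 1 to 19 that are mostly unmasked. The NR5A motif (CCAAGGCCA, CCAAGGTCA, TCAAGGCCA or TCAAGGTCA) occurred in 11.6% ± 0.65 of the single-copy members (SD, n = 2 sets of summits), compared with 1.59% of those windows, 1.78% of all windows and 1.07% of the multi-copy members. It was also found in 13.7% of single-copy intronic peaks and 7.96% of those over 50 kb from a TSS, but in 1.44% of single-copy promoter peaks. At replicate 1 summits it was 93 of 836 members (9.17 to 13.4%). The strongest had 35 and 67 tags, 39.4 kb upstream of A730009L09Rik, followed by a region 15.3 kb upstream of Dcbld2 with 32 and 51 tags that also held a SMAD palindrome (GTCTAGAC), and one 30.3 kb downstream of Smim20 with 30 and 54 tags.

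CTCF matches, to the core of its motif, occurred in 3.34% ± 0.50 of the single-copy members and 0.114% of unmasked windows, the largest ratio of the 18 motifs at 29.4. Those 25 members had medians of 16 and 18 tags and lay near Rassf7, Stard10 and Phlda3 among others. The AP1 motif (TGACTCA or TGAGTCA) occurred in 7.46% ± 0.10, compared with 3.65%, and its 63 members had medians of 17 and 26 tags. When 200 bp in place of 50 had to be unique, AP1 matches were in 3.50% of the summits, below the 3.65% of the windows. That set was wider, 62.9% of the members, and took in 46.3% of the multi-copy members. Over all multi-copy members, AP1 matches were in 1.46%. CTCF matches were in 1.28% of the wider set, above the 0.114% of the windows. The strongest members with an AP1 match lay near Me2 with 46 and 74 tags and near Tbc1d31 with 34 and 70. In single-copy intronic peaks CTCF matches were in 2.45% and AP1 matches in 7.60%, and in single-copy peaks over 50 kb away in 2.24% and 7.45%, so that the AP1 share of the members was close to that of the other distal classes. Single-copy promoter peaks had 0.633% and 2.28%.

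Other motifs were also more frequent in single-copy members than in unmasked windows. The EGR motif (GCGGGGGCG or GCGTGGGCG) was in 0.895%, compared with 0.0689%, the GC box (GGGGCGGGG) in 1.85% ± 0.43, compared with 0.410%, the CRE (TGACGTCA) in 0.716%, compared with 0.119%, and the motif of sine oculis homeodomain factors (TCAGGTTTC) in 1.13%, compared with 0.273%. These rest on few members, 7, 18, 6 and 9 at replicate 1 summits, and the EGR motif and the GC box can share bases. The EGR motif was in 0.197% of single-copy intronic peaks, 0.0914% of those over 50 kb away and 3.54% of single-copy promoter peaks. In the same order, the GC box was in 0.591%, 0.594% and 11.3%, and the CRE in 0.450%, 0.503% and 3.49%. The sine oculis motif was in 0.900%, 0.503% and 0.194%. The E-box (CAGCTG) was in 17.0% and the GATA motif (AGATAAG) in 6.45%, compared with 8.32% and 3.14%. The PITX motif (TAATCC) was in 7.88%, compared with 7.32%, and CCAAT, which NFY binds, in 26.3%, compared with 27.5%, so that both unmasked shares lay within the members' intervals. The LHX motif (TAATTA) was rarer in members, 3.46% compared with 7.82%, as was the forkhead motif (TGTTTAC), 2.03% compared with 3.33%. For the octamer (ATGCAAAT) and the steroid receptor motif (GNACANNNTGTNC), in 1.02% and 0.299%, the unmasked shares of 1.46% and 0.346% also lay within the intervals. The SMAD palindrome was in 0.358% ± 0.17, compared with 0.186% of unmasked windows, and in only 4 of 836 members at replicate 1 summits. The NFI motif (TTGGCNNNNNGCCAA) and the estrogen receptor motif (GGTCANNNTGACC) were in 0 of 836 members, with an upper bound of 0.457%. The GC content around single-copy summits had a median of 49.9% within 250 bp, compared with a GC content of 42.0% over unmasked windows, and its part in these shares was not tested.

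**Figure D5:**
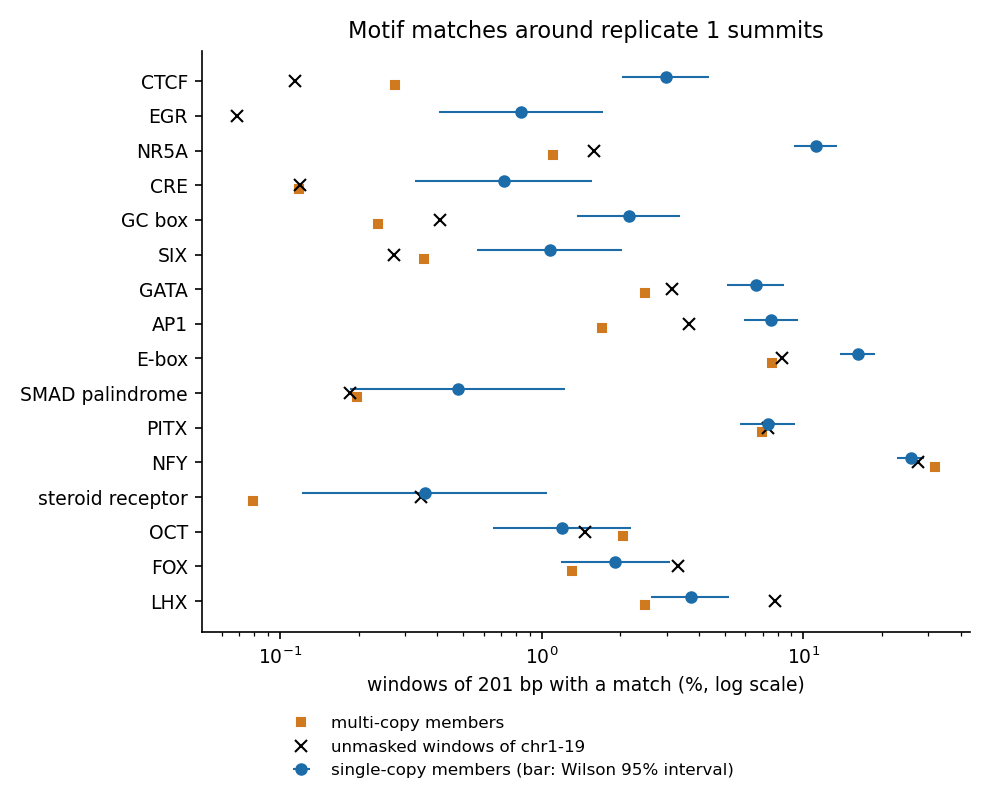
Percentage of replicate 1 summits with a match within 100 bp (x axis, log scale) for 16 motifs, in single-copy members (blue, bars are Wilson 95% intervals), multi-copy members (orange) and mostly unmasked windows of chromosomes 1 to 19 (crosses). NR5A, CTCF and EGR matches lie farthest above the windows, and LHX matches below them; motifs at 0 are not drawn.

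The replicates differed in how strongly single-copy members stood above background. Scaled by both backgrounds, whose ratio was 1.16, 77.9% of the single-copy members had more tags in replicate 2, but 45.3% of the multi-copy members did. The same held for 73.7% of single-copy intronic peaks, 68.4% of those over 50 kb away and 88.5% of single-copy promoter peaks. For multi-copy peaks of these classes the shares were 45.2%, 44.2% and 69.9%. The median ratio of tags, replicate 2 to replicate 1, was 1.43 for single-copy and 1.14 for multi-copy members. Across members, tags had a Spearman rho between replicates of 0.673 for single-copy and 0.568 for multi-copy members, a description over regions of the same 2 libraries. Summits lay a median of 50 bp and 60 bp apart.

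An exact two-sided binomial test of the tags of each of the 22917 matched pairs, with the share set by the backgrounds and Benjamini-Hochberg adjustment over all pairs, compared both libraries and not conditions. It called 0.672% of all pairs, 0.655% higher in replicate 2 and 0.0175% higher in replicate 1. Of the 3724 members, 5 were called (0.134%), all higher in replicate 2, fewer than the background share. Of promoter peaks, 2.29% were called higher in replicate 2, a share that was 0.669% with tags scaled by the median ratio. This test can call less where tags are few, and medians were 16 and 19 tags for members and 19 and 32 for promoter peaks. The part of tag numbers in these shares was not tested. At an unadjusted p under 0.05 there were 122 members (3.28%), 105 of them higher in replicate 2, compared with 8.25% of all pairs. Among single-copy members there were 84 of 836 (10.0%), above the share of all pairs, 80 of them higher in replicate 2. Among multi-copy members there were 31 of 2533 (1.22%). After adjustment, 4 single-copy members (0.478%) and 1 multi-copy member (0.0395%) were called. A difference of this size between libraries has no replicate of its own, and a paired permutation test of 2 replicates cannot go below p = 0.5.

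The 5 were the region near Ghrhr with 39 and 101 tags (adjusted p = 0.00561, exact binomial test), 1 near Chd7 with 20 and 61, 1 near Myo1g with 16 and 51, 1 near Catspere2 with 33 and 81 and 1 near Ttc39a with 18 and 54. All but the last lay within 0.266 kb of a RefSeq transcript start, such as that of the non-coding gene Snhg15, 0.007 kb from the member near Myo1g. With tags scaled by the median ratio of all pairs, 1.25, the test called 0.257% of all pairs, 0.727% of promoter peaks and 2 members (0.0537%), the region near Ghrhr (adjusted p = 0.0369, exact binomial test), higher in replicate 2, and the multi-copy region near Zfp825 (adjusted p = 0.0176, exact binomial test), higher in replicate 1 on that scale.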

How the data were processed

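ATAC-seq reads of 2 replicate samples of GnRH-treated LβT2 cells were aligned by the authors with Bowtie2 to GRCm38, duplicates were removed, and peaks were called with MACS2 in each replicate; versions are not given in the sources used here. Each deposited list gives, per peak, the authors' fold enrichment, −log10 p and q values and a score derived from q. Summit tags and the background were solved from the deposited fold and −log10 p, so read totals are unknown. The genome size option that the paper gives for MACS2 is dm, the fruit fly setting, and no other setting was tried here. The members and gene lists were chosen with earlier results of these data known.

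Gene bodies and TSSs came from GENCODE vM21 and RefSeq. Copies of the 50 bp at each summit were counted exactly on both strands, with 200 bp as an alternative, and near copies were searched with BLAST+ 2.17.0. Motifs were matched as exact letters within 100 bp of the summit. Tags of matched pairs were compared by an exact two-sided binomial test with Benjamini-Hochberg adjustment over 22917 pairs. Shares have Wilson 95% intervals, which cover counting error only. The regions named were the 10 highest single-copy and 5 highest multi-copy members by mean rank of −log10 q, all single-copy members of gonadotrope, other pituitary and immediate early genes, and the genes with the most single-copy members; members of the other lists, with functional elements, with NR5A, AP1 or CTCF motifs or called between replicates were added after values were seen. One of the 10 highest single-copy members is not reported here. The tools were scipy 1.17.1, pandas 2.3.3, numba 0.67.0 and numpy 2.4.6 under Python 3.11.15, and the calculations were tested on simulated data. Other summit tolerances, q limits, annotations, copy lengths, motif windows, scalings and single replicates were tried as alternatives.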

Additional observations from a re-analysis of the deposited data

How the results depend on the processing

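With 2 samples of 1 condition and unknown read totals, most members rested on fewer than 25 tags, and no difference from untreated cells could be measured. No paired analysis was possible because there is only 1 group. The cause of the changes below was not tested. The number of members, 3724, was 1345 with a −log10 q of at least 5 in both replicates, 450 with at least 10, and 9527 to 10270 with either replicate alone. The single-copy share at replicate 1 summits, 27.1%, was 29.4% with summits within 100 bp, 35.8% and 40.9% with the 2 q limits, 27.4% at replicate 2 positions, 62.9% when 200 bp had to be unique, 22.6 to 26.6% with 1 replicate, and 33.5% without the 2 stretches of chromosome 14, an alternative chosen after seeing the data. In the same order the unmasked share, 35.7%, was 36.6%, 48.7%, 56.4% and 35.3%, then 81.7% for single-copy members, 29.9 to 33.1% with 1 replicate and 32.8% without the stretches. Median tags, 17.5, were 23.5 and 33.0 with the q limits, 21.0 for single-copy members and 14 to 16 with 1 replicate. The share of coding genes with a member, 10.6%, was 8.25% with summits within 100 bp, 4.60% and 1.75% with the q limits, 10.3% with gene 5′ ends, 10.1% with RefSeq, 3.49% for single-copy members, 18.4 to 20.3% with 1 replicate and 9.91% without the stretches. The density ratio, 1.204, was 1.30 with summits within 100 bp, 1.22 and 1.34 with the q limits, 1.18 with gene 5′ ends, 1.203 at replicate 2 positions, 0.963 for single-copy members, 1.18 to 1.19 with 1 replicate and 0.916 without the stretches. Among the 1010 members single-copy at replicate 1 summits, CTCF matches, 2.57%, were 1.87% and 1.63% with the q limits, 3.24% at replicate 2 positions, 1.28% with 200 bp copies, 1.78% and 3.66% within 50 and 250 bp, and 2.47 to 3.59% with 1 replicate. AP1 matches, 6.44%, were 6.27% with summits within 100 bp, 7.47% and 7.07% with the q limits, 6.37% at replicate 2 positions, 3.50% with 200 bp copies, 3.96% and 10.4% within 50 and 250 bp, and 5.12 to 5.93% with 1 replicate. The 5 called members were 2 with a −log10 q of at least 10 and 2 with median scaling. Single-copy members per Mb near activin, inhibin and BMP genes, 10.3, were 5.55 without Inhbb. The other 13 values moved by less than the spread between replicates or, for counts, stayed within 1.5 times.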
